A study of Mus musculus with 18 samples.

Results

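Smad1, Smad2, Smad3 and Smad5 are receptor-activated Smads, and Smad4 is their common partner. These 5 genes were taken by name from the 54532 genes of the deposited count table of mouse bone marrow macrophages, and all 5 were among the 14684 genes with enough counts to be tested. The rule for choosing them used gene names and no measured value, although earlier results of these data were known.

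Ligands of the TGF-β family bind pairs of type I and type II receptor kinases, and the type I receptor phosphorylates a receptor-activated Smad on the serines at its carboxyl end. Smad2 and Smad3 are the classical substrates of the TGF-β and activin receptors, whereas Smad1, Smad5 and Smad9 are those of the BMP receptors. In some cells TGF-β also activates Smad1 and Smad5. The phosphorylated Smads join Smad4, enter the nucleus and regulate genes, among them those of the inhibitory Smads Smad6 and Smad7. This activation is a change of the protein, which RNA-seq does not measure, so the values below describe how much message of each Smad was present.

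Macrophages were grown from the tibial bone marrow of 2- to 3-month-old mice of both genotype labels, Smad1 fl/fl and Smad1 fl/fl + LyzM-Cre (MyS1KO). Both labels thus carry the floxed Smad1 allele, and the second adds a Cre recombinase driven from the lysozyme M gene, Lyz2, which is active in macrophages and other myeloid cells. The cells were differentiated with CSF-1, at 12 ng/ml in a first culture of 24 h and 120 ng/ml in a second of 48 h. In all groups, culture before starvation also used 15% serum and 10% WEHI-3 medium. The cells were then starved of serum for 16 h. After that they were left untreated or given TGF-β1 at 10 ng/ml or BMP4 at 50 ng/ml for 4 h. This gave 6 groups of 3 polyadenylated RNA libraries. The labels do not say whether the 3 libraries of a group came from different mice, so the p-values measure the spread between libraries, which may be technical in part. They also do not say which Smad1 exon was floxed.

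The 18 libraries held 15153296 to 24639163 counts each, and mitochondrial genes took 1.02% to 1.26% of them. All 8 macrophage markers looked at, among them Csf1r, Adgre1 and Cd68, were above 1 CPM, a unit in which each library's counts are scaled to a total of 1000000. The 6 mast cell and basophil markers summed to 0.534 to 1.44 CPM and the 6 of T, B and NK cells to 0.377 to 1.62 CPM. The 8 neutrophil markers summed to 75.3 to 195 CPM and the 7 fibroblast markers to 0.426 to 15.8 CPM. In the usual LyzM-Cre allele the Cre sequence is inserted into Lyz2, which disrupts that copy of the gene. Lyz2 separated the labels in the opposite direction, since all 9 MyS1KO libraries were above all 9 Smad1 fl/fl libraries. It stood at 37.6 to 74.3 CPM in the 3 Smad1 fl/fl libraries numbered 1, at 8110 to 9860 CPM in the other 6 Smad1 fl/fl libraries, and at 13400 to 17800 CPM in the 9 MyS1KO libraries. Whether genotype labels of some libraries were exchanged was not tested, and an exchange would change what every difference between the labels means. The groups are therefore called floxed-labelled and knockout-labelled here, and results that changed without the 3 libraries with little Lyz2 are given both ways.

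The receptor-activated Smads end in a short serine motif that the type I receptor phosphorylates. The last 48 bases of the coding sequences of 3 of them, stop codon included, are shown because the motif is what makes these proteins receptor targets. Capitals mark the 4 codons of the motif. The sequences were read from the GRCm38 genome with the GENCODE M21 annotation, on the strand of the gene, from the last coding exon of each.
Smad1, chr8:79339649-79339696, minus strand, exon 7: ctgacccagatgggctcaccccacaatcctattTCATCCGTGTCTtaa
Smad5, chr13:56737431-56737478, plus strand, exon 7: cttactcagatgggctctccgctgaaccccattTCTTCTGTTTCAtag
Smad3, chr9:63650262-63650309, minus strand, exon 9: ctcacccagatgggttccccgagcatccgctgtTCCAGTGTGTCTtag
Smad1 and Smad5 differed at 13 of these 48 bases, Smad1 and Smad3 at 17, and Smad3 and Smad5 at 16. Over the whole coding sequence, identity was 77.2% between Smad1 and Smad5, 77.1% between Smad2 and Smad3, and 58.9% to 68.9% for the other 8 pairs. The longest stretch of identical bases shared by any pair was 24 bases, between Smad1 and Smad3, which is far shorter than the 150-base reads.

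In GRCm38 coordinates as deposited, Smad1 (ENSMUSG00000031681) lies at chr8:79338395-79399518 on the minus strand and Smad5 (ENSMUSG00000021540) at chr13:56703010-56742377 on the plus strand. Smad3 (ENSMUSG00000032402) lies at chr9:63646767-63757994 on the minus strand. Smad2 (ENSMUSG00000024563) at chr18:76241580-76305731 and Smad4 (ENSMUSG00000024515) at chr18:73639009-73703780 are on the same chromosome, on the plus and the minus strand. The deposited table lists no gene on the opposite strand across any of the 5. Smad5 overlaps 3 small RNA genes on its own strand, which had 0 to 4 counts in any library.

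Per length, Smad4 was the most abundant of the 5 messages and Smad2 came next, both well above the other 3. Over the 18 libraries the authors' FPKM, which are CPM of the unscaled library total divided by gene length in kilobases, were 18.1 ± 1.07 (SD, n = 18) for Smad4 and 12.2 ± 0.433 for Smad2. They were 4.41 ± 0.371 for Smad5, 4.15 ± 0.555 for Smad1 and 3.82 ± 0.509 for Smad3. Smad4 was above Smad2 in 18 of 18 libraries, by a median ratio of 1.47, and Smad2 was above Smad5 in 18 of 18, by 2.79. The lower 3 did not keep an order, since Smad5 exceeded Smad1 in 12 of 18 libraries and Smad1 exceeded Smad3 in 14 of 18. Among the 14684 tested genes ordered by mean FPKM, Smad4 ranked 2705, Smad2 3836, Smad5 7237, Smad1 7407 and Smad3 7669.

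The place of Smad2 in that order rests on its gene length. The deposited length of Smad2 is 3549 bases, whereas the merged exons of Smad2 in GENCODE M21 cover 8781 bases. For the other 4 genes the deposited length and the annotation were equal. Dividing the same Smad2 counts by the longer length gave 4.94 ± 0.175 FPKM (n = 18), which was above Smad5 in 17 of 18 libraries but by little. The counts were not remade for the longer gene model, so this value is a lower limit of the Smad2 level under it. Comparisons of Smad2 between groups do not depend on the length.

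**Figure D1:**
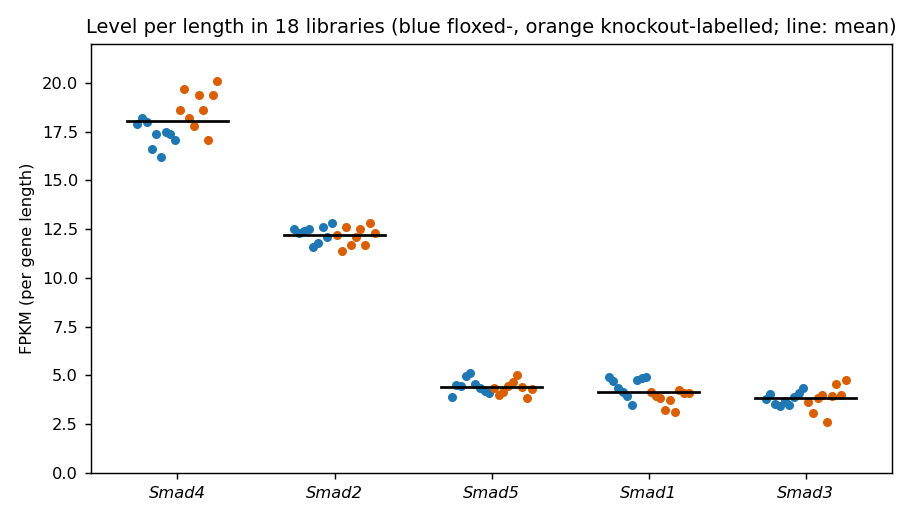
Level of each message per length, in the authors' FPKM (y axis, from 0), for the 5 genes (x axis) in 18 libraries; blue points are floxed-labelled, orange points knockout-labelled libraries, and the line is the mean. Smad4 lies at 18.1 and Smad2 at 12.2 on the deposited lengths, and the means of the other 3, whose points overlap, lie between 3.82 and 4.41.

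Smad9, the remaining BMP-type receptor-activated Smad, had 0 to 5 counts in each library and was not tested. The BMP-type messages in these cells were therefore those of Smad1 and Smad5. In the floxed-labelled untreated libraries the ratio of Smad1 to Smad5 FPKM was 1.15 ± 0.0503 (SD, n = 3).

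After 4 h of TGF-β1 the message of Smad1 fell and that of Smad5 rose, so the pair of BMP-type Smads moved in opposite directions. Smad3 also fell, while no change passed the test for Smad2 or Smad4. Averaged over both labels, the fall was 20.0% for Smad1 and 17.6% for Smad3, and the rise was 14.5% for Smad5. The log2 differences of -0.32, -0.28 and 0.20 compare with a median size of 0.21 over all tested genes. In this averaged comparison 46% of the 14684 tested genes were called, 23.2% higher and 22.8% lower, and 3 of the 5 Smads were called. Without the 3 libraries with little Lyz2 the averaged comparison still called 3 of the 5 Smads, and each label's own comparison called 1 of 5, Smad1. Calls rest on edgeR's quasi-likelihood test with Benjamini-Hochberg adjustment over all 14684 genes, at an adjusted p under 0.05. In bulk RNA, fewer cells of a type and less message per cell cannot be told apart. The 6 dendritic cell markers summed to 7.18 to 12.6 CPM in TGF-β1 libraries and to 4.69 to 7.55 CPM in untreated ones. In knockout-labelled libraries the 8 macrophage markers summed to 24000 to 24100 CPM after TGF-β1 and to 25800 to 27800 CPM untreated. Of these sums Lyz2 alone held 13400 to 13900 CPM after TGF-β1 and 15100 to 17300 CPM untreated. In floxed-labelled libraries the sums overlapped, at 10100 to 19100 CPM after TGF-β1 and 10500 to 21400 CPM untreated. The part of these markers in the differences was not tested.

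Smad1 stood at 30.0, 30.7 and 31.0 CPM in the floxed-labelled untreated libraries 1 to 3 and at 26.3, 24.6 and 22.1 CPM after TGF-β1. All treated libraries were below all untreated ones, as was so for 43.9% of the tested genes in this comparison when either direction is counted. The log2 difference was -0.33 ± 0.08 (SE, adjusted p = 0.00187, edgeR). In the knockout-labelled libraries Smad1 stood at 26.8, 26.0 and 25.9 CPM untreated and at 20.4, 23.6 and 19.4 CPM after TGF-β1. Again the groups did not overlap, which held for 44.9% of the tested genes, and the log2 difference was -0.31 (adjusted p = 0.00425, edgeR). Of all tested genes, 33% were called in the floxed-labelled and 34.6% in the knockout-labelled comparison, against 2 of the 5 Smads in each.

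Smad5, a close relative of Smad1 that the same receptors activate, moved the other way. It stood at 32.3, 31.3 and 30.6 CPM in the floxed-labelled untreated libraries and at 37.4, 38.3 and 34.1 CPM after TGF-β1, with no overlap. The log2 difference was 0.22 (adjusted p = 0.022, edgeR). Leaving out any of 4 libraries ended this call, namely floxed-labelled untreated libraries 2 and 3 and floxed-labelled TGF-β1 libraries 1 and 2, with adjusted p from 0.0615 to 0.13. Without the 3 libraries with little Lyz2 the difference was also 0.22, with adjusted p = 0.0649. In the knockout-labelled libraries Smad5 was at 32.8, 28.8 and 32.1 CPM untreated and at 33.4, 34.8 and 37.3 CPM after TGF-β1. These groups did not overlap either, but the log2 difference of 0.17 missed the threshold (adjusted p = 0.081). The mean over both labels passed it, at 0.20 on the log2 scale (adjusted p = 0.00381, edgeR).

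Smad3, a direct substrate of the TGF-β type I receptor, stood at 21.8, 22.7 and 24.3 CPM in the floxed-labelled untreated libraries and at 19.1, 20.6 and 19.6 CPM after TGF-β1. The groups did not overlap, and the log2 difference of -0.21 did not pass the test (adjusted p = 0.212). With the library number as a block within each label the same difference was called (adjusted p = 0.0403, edgeR). In the knockout-labelled libraries Smad3 was at 25.3, 22.2 and 26.7 CPM untreated and at 22.2, 14.5 and 21.8 CPM after TGF-β1. Library 2 was the lowest in each of the 3 knockout-labelled groups, and the TGF-β1 library 2 lay far below its group. The log2 difference was -0.35 (adjusted p = 0.0397, edgeR). Without knockout-labelled TGF-β1 library 2 the Smad3 difference was -0.16 with adjusted p = 0.271, and without knockout-labelled untreated library 1 or 3 the adjusted p was 0.116 or 0.15. Without the 3 libraries with little Lyz2 it was -0.34 with adjusted p = 0.0685. Over both labels Smad3 fell by 0.28 on the log2 scale (adjusted p = 0.0139, edgeR).

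Smad2 and Smad4 were the steadiest of the 5. Smad2 lay between 40.6 and 45.8 CPM in all 18 libraries, and its group means lay between 42.8 and 44.6 CPM. The TGF-β1 to untreated ratio of Smad2 over both labels was 0.972, with a 95% interval of 0.919 to 1.03. Smad4 had group means of 64.6 CPM untreated and 62.7 CPM after TGF-β1 in floxed-labelled libraries, and of 70.7 and 69.3 CPM in knockout-labelled libraries. Its ratio over both labels was 0.976 (95% interval 0.921 to 1.03).

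**Figure D2:**
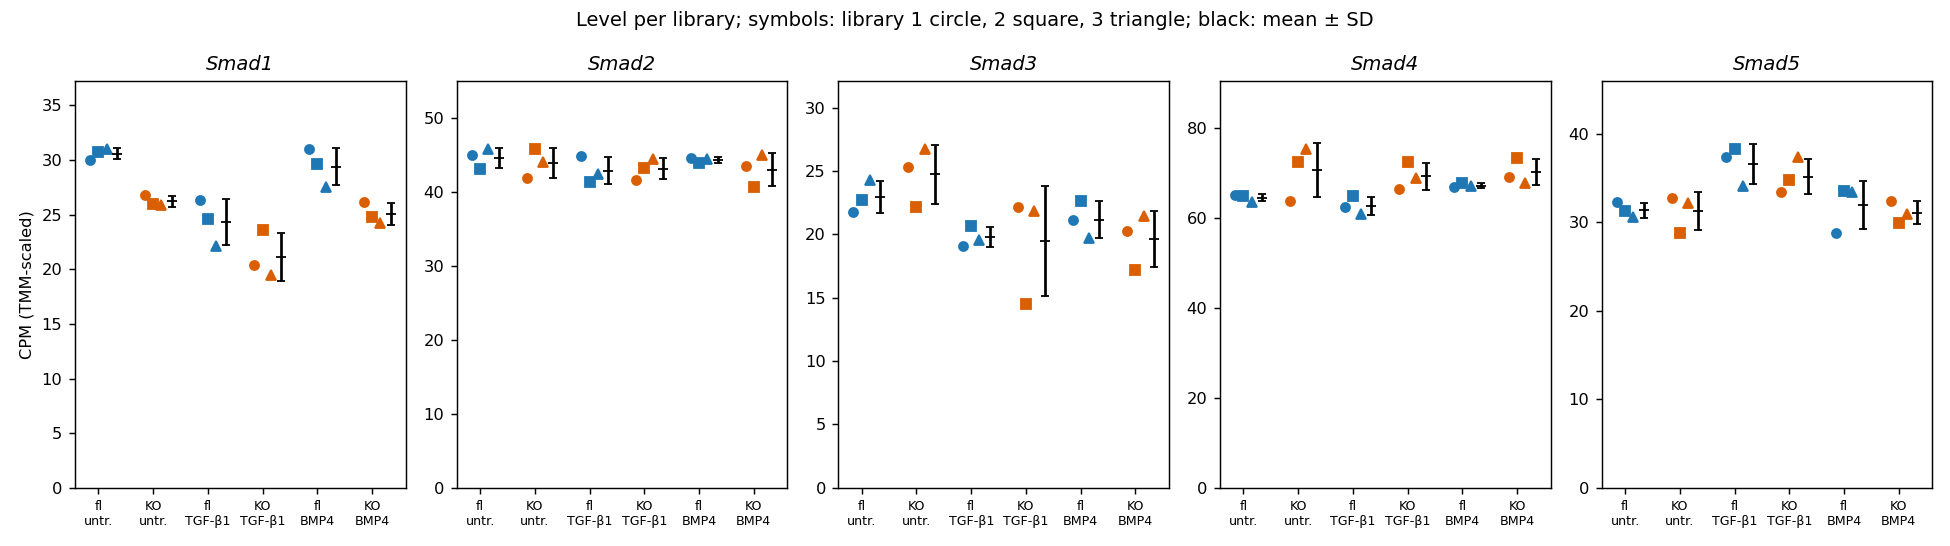
Level of each Smad in CPM (y axes, from 0, TMM-scaled) in the 6 groups (x axes), where fl is floxed-labelled, KO knockout-labelled and untr. untreated; symbols give the library number and black bars the mean ± SD of 3 libraries. Smad1 is lower in the TGF-β1 groups (24.4 and 21.1 CPM) than in the untreated groups (30.6 and 26.2 CPM), and Smad5 is higher (36.6 and 35.2 CPM against 31.4 and 31.3 CPM).

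BMP4 changed none of the 5 messages past the test when library numbers were not taken as pairs. With the library number as a block within each label, Smad3 was called as lower in knockout-labelled libraries and in the mean over both labels. In the floxed-labelled comparison edgeR called 0 of the 5 Smads and 0% of all tested genes. DESeq2 called 31 genes there, none of them one of the 5 Smads. An unadjusted p under 0.05 was found for 7.51% of the tested genes, or 1103, and for 0 of the 5. In the knockout-labelled comparison 0 of 5 were called by edgeR as by DESeq2, beside 0.572% of all tested genes, or 84, by edgeR and 167 genes by DESeq2. There 1 of 5, Smad3, had an unadjusted p under 0.05, as did 12.2% of all tested genes. Both comparisons use the same untreated libraries as those of TGF-β1. In knockout-labelled libraries the 7 fibroblast markers summed to 3.13 to 5.3 CPM after BMP4 and to 2.13 to 2.76 CPM untreated. In floxed-labelled libraries these sums overlapped, at 2.54 to 15.8 CPM after BMP4 and 3.98 to 4.29 CPM untreated. The part of the fibroblast markers in these differences was not tested.

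Smad1, the message of a main effector of BMP receptors, was at 31.0, 29.6 and 27.6 CPM after BMP4 in floxed-labelled libraries and at 26.2, 24.8 and 24.3 CPM in knockout-labelled ones. Each set overlapped its untreated group. The BMP4 to untreated ratio over both labels was 0.959 for Smad1, with a 95% interval of 0.887 to 1.04. For Smad5 it was 1.01, with a 95% interval of 0.933 to 1.08. Smad5 stood at 28.8, 33.6 and 33.4 CPM in floxed-labelled and at 32.4, 29.9 and 30.9 CPM in knockout-labelled BMP4 libraries, across the span of the untreated values.

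Smad3 had the largest BMP4 difference of the 5. It stood at 20.2, 17.2 and 21.4 CPM in the knockout-labelled BMP4 libraries, all below the untreated 22.2 to 26.7 CPM, a lack of overlap seen for 15.7% of the tested genes. The log2 difference was -0.33 with an unadjusted p of 0.0155 and an adjusted p of 0.269 (edgeR). With the library number as a block within each label the Smad3 difference was -0.34 and was called (adjusted p = 0.0246), in a fit that called 472 genes in place of 84. In the floxed-labelled libraries Smad3 was at 21.1, 22.7 and 19.7 CPM after BMP4, overlapping the untreated group, with a log2 difference of -0.12 (adjusted p = 0.872). Averaged over both labels the Smad3 difference was -0.22, with adjusted p = 0.249, and with the block -0.23 and adjusted p = 0.0208. That averaged comparison called 0.872% of the tested genes, or 128, and 794 with the block.

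Smad4 after BMP4 was at 66.9, 67.9 and 67.1 CPM in floxed-labelled libraries, above the untreated 63.7 to 65.2 CPM without overlap. Such a gap was seen for 13.1% of the tested genes, and the log2 difference of 0.06 did not pass the test (adjusted p = 0.85). In knockout-labelled libraries Smad4 was at 69.3, 73.5 and 67.9 CPM after BMP4, within the untreated 63.9 to 75.5 CPM. Smad2 group means after BMP4 were 44.3 and 43.0 CPM, against 44.6 and 43.9 CPM untreated.

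Whether the 2 labels differed in their response was tested directly. None of the 5 Smads was called for either ligand, with adjusted p of 1 for TGF-β1 and of 0.983 to 0.999 for BMP4 (edgeR). For the TGF-β1 response 0.00681% of all tested genes, 1 gene, was called, and it was 1 of the 8 signalling readouts described below. Without the 3 libraries with little Lyz2, 0 genes were called. For the BMP4 response edgeR called 0 genes, or 0%, with 839 at an unadjusted p under 0.05, and DESeq2 called 11. The TGF-β1 response of Smad1 in knockout-labelled libraries was 1.01 times that in floxed-labelled libraries, as a ratio of ratios, with a 95% interval of 0.864 to 1.19. The interval was 0.832 to 1.12 for Smad5 and 0.704 to 1.18 for Smad3, the widest of the 5.

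**Figure D3:**
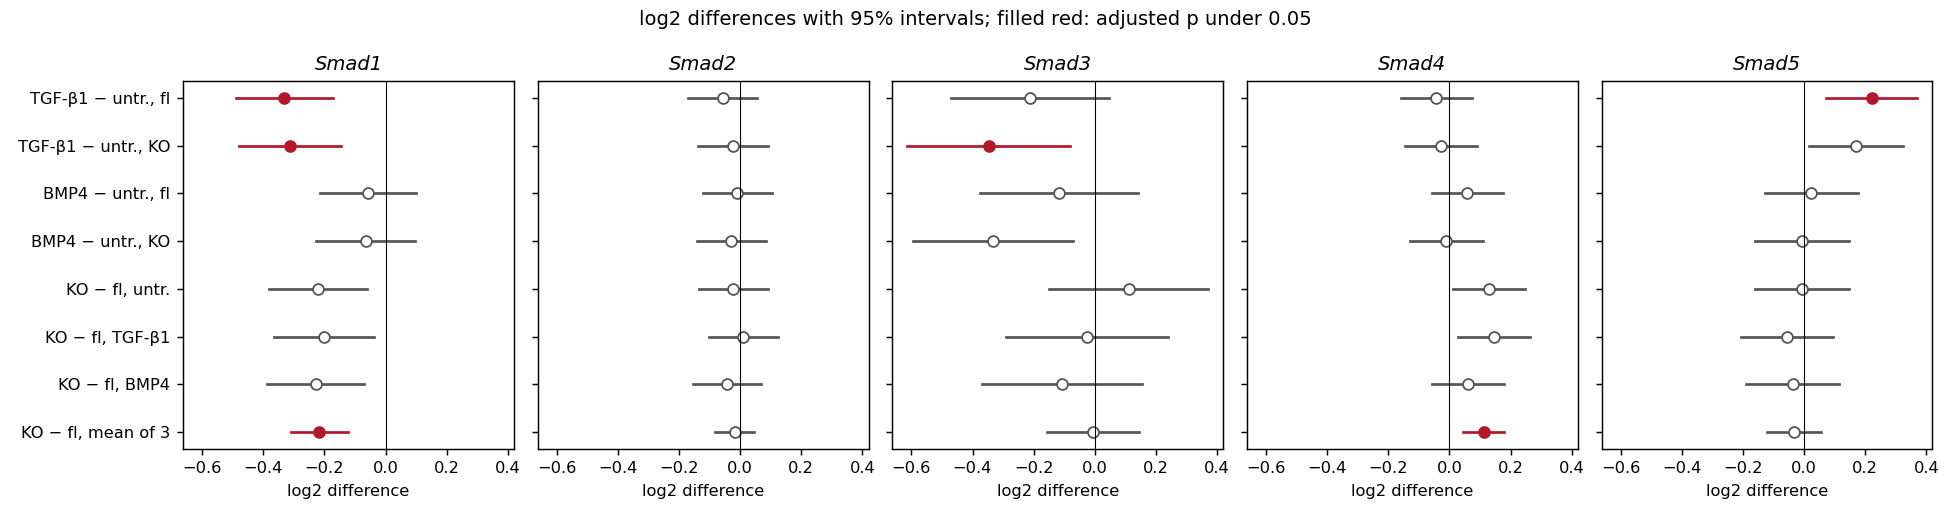
log2 differences (x axes) with 95% intervals for the 5 Smads in 8 comparisons (y axis), where fl is floxed-labelled, KO knockout-labelled and untr. untreated; filled red points had an adjusted p under 0.05 in edgeR's quasi-likelihood test and open points did not. Smad1 lies left of 0 for TGF-β1 in both labels (-0.33 and -0.31), and Smad2 lies close to 0 in every comparison shown.

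Smad1, the targeted gene, was present in all 9 knockout-labelled libraries, at 19.4 to 26.8 CPM or 305 to 553 counts. Its level there was 0.858 times that in the floxed-labelled libraries untreated, 0.869 times under TGF-β1 and 0.853 times under BMP4. None of these single differences passed the test, with adjusted p of 0.13, 0.278 and 0.44 (edgeR). Untreated and BMP4 groups did not overlap, and the TGF-β1 groups did. Groups without overlap made up 20.5% of the tested genes untreated, 19.2% under TGF-β1 and 13.2% under BMP4.

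The mean difference of Smad1 over the 3 treatments was -0.22 ± 0.04 (SE) on the log2 scale, a ratio of 0.86 with a 95% interval of 0.806 to 0.918, and was called (adjusted p = 0.00489, edgeR). In that comparison 9.88% of all tested genes were called, and 2 of the 5 Smads, Smad1 and Smad4. Its direction is that of the labels, which Lyz2 went against. This fit counts the 3 treatments of one library number as independent, although they deviated together. With the counts of the 3 treatments summed per label and number, leaving 3 against 3, the Smad1 difference was again -0.22, with adjusted p = 0.138. Without the 3 libraries with little Lyz2 the Smad1 difference was -0.19 with adjusted p = 0.0297. The medians of Smad1 were 30 CPM in those 3 libraries, 28.6 CPM in the other 6 floxed-labelled libraries and 24.8 CPM in the 9 knockout-labelled libraries. The 6 erythroid and platelet markers summed to 217 to 261 CPM in floxed-labelled and 151 to 213 CPM in knockout-labelled libraries, and the 8 macrophage markers, Lyz2 among them, to 10100 to 21400 and 24000 to 29300 CPM. Untreated, the 7 fibroblast markers summed to 3.98 to 4.29 CPM in floxed-labelled and 2.13 to 2.76 CPM in knockout-labelled libraries. Their sums overlapped between the labels under TGF-β1, at 1.45 to 12.9 and 0.426 to 2.5 CPM. The same held under BMP4, at 2.54 to 15.8 and 3.13 to 5.3 CPM. The part of these markers in the label differences was not tested.

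The counts cover the whole of Smad1 and do not check the loss of a single exon. In GENCODE M21 the longest coding transcript of Smad1 has 7 exons of 117 to 1398 bases, each of which makes up between 1.87% and 22.3% of the counted length. Exon 2, the first coding exon, at chr8:79371784-79372364, has 581 bases, or 9.28% of it. The submitters' design note says that loss of Smad1 protein was shown by western blot, which was not analysed here.

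Smad4 was the other Smad called in the mean over treatments. It stood at 65.2, 64.9 and 63.7 CPM in floxed-labelled and 63.9, 72.6 and 75.5 CPM in knockout-labelled untreated libraries, which overlapped. Under TGF-β1 it was at 62.4, 64.9 and 60.8 CPM against 66.6, 72.5 and 68.9 CPM, without overlap. The mean log2 difference over the 3 treatments was 0.11 (adjusted p = 0.0355, edgeR), a ratio of 1.08. The call was lost in 13 of the 18 fits that left out 1 library, with adjusted p from 0.0543 to 0.0833. It was also lost without the 3 libraries with little Lyz2 (0.11, adjusted p = 0.106) and with the treatments summed (0.10, adjusted p = 0.299).

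For the single treatments, 2.39% of all tested genes were called untreated, 0.388% under TGF-β1 and 0.0272% under BMP4, and none of the 5 Smads by edgeR or by DESeq2. At an unadjusted p under 0.05 there were 2 of the 5 Smads untreated, 2 under TGF-β1 and 1 under BMP4, all of them Smad1 or Smad4, beside 17.5%, 12.5% and 7.91% of all tested genes. Smad2, Smad3 and Smad5 had mean differences over treatments of -0.02, -0.01 and -0.03 on the log2 scale. The 95% intervals of the knockout-labelled to floxed-labelled ratio were 0.944 to 1.03 for Smad2, 0.896 to 1.11 for Smad3 and 0.92 to 1.04 for Smad5.

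The opposite TGF-β1 responses of Smad1 and Smad5 changed their ratio within each library. The ratio of Smad1 to Smad5 FPKM was 1.1, 1.16 and 1.2 in floxed-labelled untreated libraries and 0.834, 0.761 and 0.77 after TGF-β1. In knockout-labelled libraries it was 0.969, 1.07 and 0.956 untreated and 0.723, 0.803 and 0.617 after TGF-β1. After BMP4 it was 1.28, 1.05 and 0.978 in floxed-labelled and 0.957, 0.983 and 0.93 in knockout-labelled libraries. All 6 TGF-β1 libraries thus had a lower ratio than any of the other 12.

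The joint weight of the pair among the receptor-activated Smads lay between 32.2% and 37.2% in all 18 libraries. Smad1 and Smad5 together made up 35.3% ± 0.801 (SD, n = 3) of the summed FPKM of the 4 receptor-activated Smads in floxed-labelled untreated libraries. They made up 36.0% after TGF-β1 and 35.6% after BMP4, and 33.3%, 34.1% and 34.4% in the same treatments of knockout-labelled libraries. The groups overlapped in all 7 comparisons of this share. With 3 against 3 libraries a two-sided exact permutation test cannot give a p under 0.1, so no comparison could pass 0.05, and p was 0.2 to 0.6 (Benjamini-Hochberg adjusted, 0.467 to 0.6). The share depends on the Smad2 length, and with the longer one it was 46.3% to 52.8% over the 18 libraries. The ratio of Smad4 to the summed receptor-activated Smads averaged 0.675, 0.691 and 0.717 in floxed-labelled untreated, TGF-β1 and BMP4 libraries. In knockout-labelled libraries it averaged 0.754, 0.786 and 0.796 in that order. These ratios also rest on the deposited Smad2 length, since Smad2 is part of the sum. Dividing the same counts by the longer length would raise them, and their size under it was not computed.

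**Figure D4:**
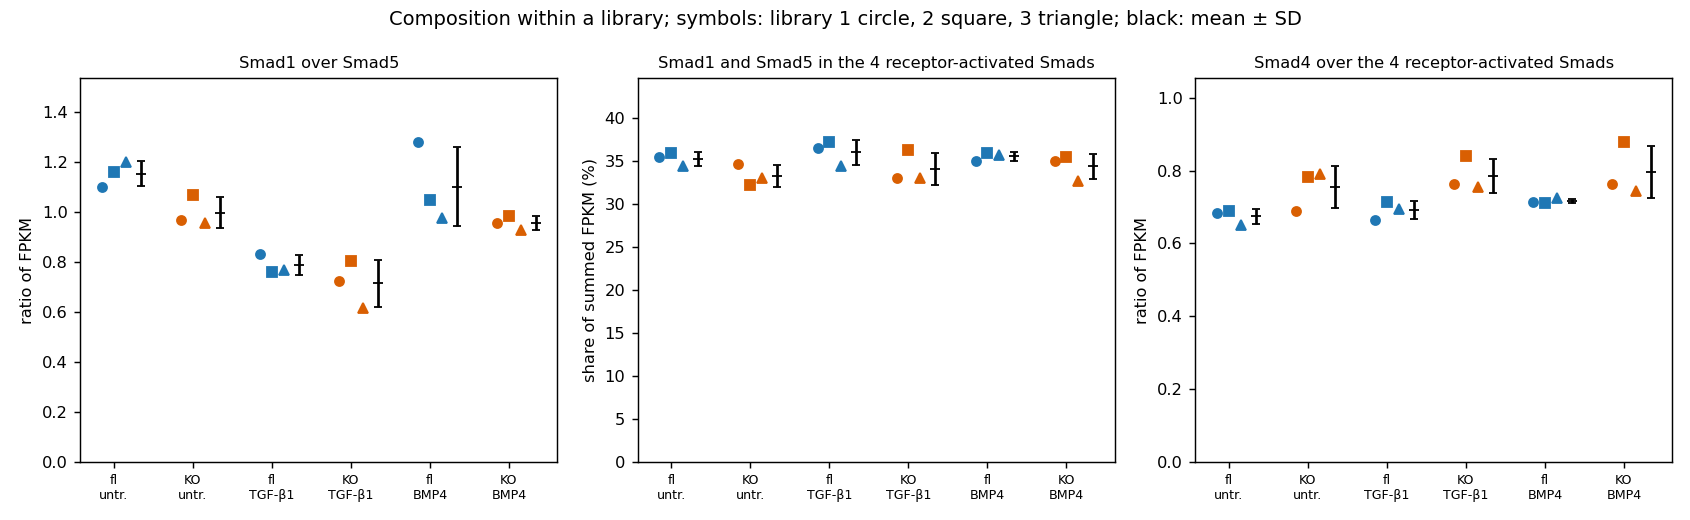
From left to right, the ratio of Smad1 to Smad5 FPKM, the share of Smad1 and Smad5 in the summed FPKM of the 4 receptor-activated Smads in percent, and the ratio of Smad4 to that sum (y axes, from 0) in the 6 groups (x axes; fl, floxed-labelled; KO, knockout-labelled; untr., untreated); symbols give the library number and black bars the mean ± SD. The TGF-β1 libraries hold Smad1 to Smad5 ratios of 0.617 to 0.834, below the 0.93 to 1.28 of the others. The share and the Smad4 ratio use the deposited Smad2 length.

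The inhibitory Smads, which block the receptor-activated ones, changed far more than the receptor-activated Smads under TGF-β1. Both tested members, Smad6 and Smad7, rose in each label. Smad7, which recruits ubiquitin ligases to the TGF-β type I receptor, went from 3.81 to 4.89 CPM in floxed-labelled untreated libraries to 41.9 to 53.3 CPM after TGF-β1, and its log2 difference over both labels was 3.41 (adjusted p = 7.39e-17, edgeR). Smad6, which mainly limits BMP signalling, had a log2 difference of 4.77 (adjusted p = 1.78e-12, edgeR) from a mean of 1.07 CPM. After BMP4 neither was called, and Smad6 was at 2.03 CPM against 1.07 CPM over both labels (adjusted p = 0.189).

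The 8 readouts of TGF-β or BMP signalling and the pathway lists below were chosen with earlier results of these data known. Their counts are therefore descriptions only. All 8 readouts rose under TGF-β1 in both labels and in the mean over them, where 23.2% of all tested genes were called higher. Pmepa1, a TGF-β-induced feedback gene, had 198 CPM after TGF-β1 against 0.889 CPM untreated, a log2 difference of 7.80 (adjusted p = 3.17e-22, edgeR). BMP4 over both labels raised 2 of the 8, Id3 and Id2, which encode inhibitors of basic helix-loop-helix factors and are BMP targets, beside 0.872% of all tested genes called in either direction. In floxed-labelled libraries 0 of the 8 were called and in knockout-labelled ones 2, the same pair.

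Id2 went from 15.9 to 18.6 CPM untreated to 25.3 to 28.2 CPM after BMP4 in knockout-labelled libraries, a log2 difference of 0.60 (adjusted p = 0.00122, edgeR). In floxed-labelled libraries Id2 was at 19.7 to 22.2 CPM untreated and at 21.4 to 22.9 CPM after BMP4, with a log2 difference of 0.07 (adjusted p = 0.853, edgeR). The Id2 rise over both labels of 0.34 on the log2 scale (adjusted p = 0.00419, edgeR) is the mean of these. Id3 rose by 3.66 on the log2 scale in knockout-labelled libraries (adjusted p = 0.00509, edgeR) and by 3.17 over both labels (adjusted p = 0.000744, edgeR). In floxed-labelled libraries Id3 was at 0.813 to 1.46 CPM untreated and at 1.88, 10.6 and 9.04 CPM after BMP4, and its log2 difference of 2.68 did not pass the test (adjusted p = 0.239, edgeR). The 1.88 CPM belongs to library 1, which is among the 3 libraries with little Lyz2. Without those 3 libraries Id3 rose by 3.30 over both labels (adjusted p = 1e-07, edgeR) and by 3.66 in knockout-labelled libraries (adjusted p = 7.41e-07, edgeR). The difference between the labels' BMP4 responses was called for 0 of the 8 readouts. For their TGF-β1 responses 1 of the 8 was called, with the larger rise in knockout-labelled libraries. Under TGF-β1 itself, 1 of the 8 differed between the labels, beside 0.388% of all tested genes. This was Id2, at 87.4 CPM in knockout-labelled and 66.8 CPM in floxed-labelled libraries (adjusted p = 0.0186, edgeR). Without the 3 libraries with little Lyz2 that Id2 call was lost (adjusted p = 0.105, edgeR). Pmepa1, named here after its values were seen, was lower under BMP4 over both labels at 0.504 CPM against 0.889 CPM (adjusted p = 0.0453, edgeR), and without the 3 libraries with little Lyz2 this call was lost (adjusted p = 0.0537).

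Among 11 tested receptors and coreceptors, 4 rose and 4 fell under TGF-β1 over both labels, where 23.2% of all tested genes were called higher and 22.8% lower. Tgfbr1, the type I receptor that phosphorylates Smad2 and Smad3, rose by 1.81 on the log2 scale, and Acvr1, a BMP type I receptor, by 0.87. Bmpr2, the BMP type II receptor, rose by 0.35. Tgfbr2, the TGF-β type II receptor, fell by 0.42, and Acvr2a and the coreceptor Eng fell by 0.54 and 0.21. The median log2 difference of the 11 was 0.13, against 0.00 over all tested genes.

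Of 17 ubiquitin ligases, deubiquitinases and phosphatases that act on Smads, 8 rose and 6 fell under TGF-β1 over both labels, beside the same 23.2% higher and 22.8% lower of all tested genes. Smurf1 and Smurf2, ligases that mark Smads and receptors for destruction, rose by 0.89 and 0.77 on the log2 scale. The ligase Nedd4l, which acts on activated Smad2 and Smad3, rose by 0.38. The ligase Wwp1 fell by 0.91, the deubiquitinase Usp4 by 0.20 and the phosphatase Ctdsp2 by 0.31. The median of the 17 was 0.06. Without the 3 libraries with little Lyz2, 13 of the 14 calls held, and that of Ctdspl, which had risen, was lost (adjusted p = 0.0604, edgeR).

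Of 12 tested anchors and nuclear transport genes, 4 rose and 2 fell under TGF-β1 over both labels, a share near the 46% of all tested genes called. Without the 3 libraries with little Lyz2, 5 of these 6 calls held, and that of Lemd3, which had risen, was lost (adjusted p = 0.174, edgeR). Ipo7, an importin, rose by 0.52, and Ranbp3, which takes part in Smad export, and the nuclear pore gene Nup153 rose by 0.11 and 0.14 on the log2 scale. Zfyve16, an endosomal Smad anchor, fell by 0.70 and the importin Kpnb1 by 0.23. Of 17 corepressors and coactivators, 9 rose and 2 fell, beside 23.2% and 22.8% of all tested genes. The corepressors Ski, Skil and Tgif1 rose by 1.53, 1.72 and 1.23, and Zeb2 and the acetyltransferase Ep300 fell by 0.32 and 0.16. The medians were -0.03 for the transport genes and 0.22 for the corepressors and coactivators.

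Under BMP4, 1 of the 17 corepressors and coactivators was called in knockout-labelled libraries, beside 0.572% of all tested genes. It was the coactivator Crebbp, which fell by 0.24 on the log2 scale (adjusted p = 0.0412, edgeR). Over both labels 1 of the 11 receptors was called under BMP4, beside 0.872% of all tested genes. It was Tgfbr2, which fell by 0.23 (adjusted p = 0.0348, edgeR). Both calls were lost without the 3 libraries with little Lyz2, with adjusted p of 0.063 for Crebbp and 0.0501 for Tgfbr2.

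Between the labels, over the 3 treatments, 6 of the 17 corepressors and coactivators were higher in knockout-labelled libraries and none lower. Crebbp was 0.17, Ncoa3 0.14 and Ski 0.13 higher on the log2 scale. Bmpr2 and Eng were higher by 0.17 and 0.16, and Nup214, Ctdsp1, Rnf111 and Usp9x by 0.09 to 0.14. The same test called 4.69% of all genes higher. Over all lists 12 genes were called, and none of the 12 with the counts of the 3 treatments summed per label and number, with adjusted p from 0.142 to 0.635 (edgeR). That summed fit called 0 of 16464 genes, with 2427 at an unadjusted p under 0.05. Without the 3 libraries with little Lyz2, 5 of the 12 were called, among them 2 of the 6 corepressors and coactivators, Crebbp and Ncoa3.

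The genes whose levels ran most like those of a Smad were ordered by Pearson's r of log2 CPM over the 18 libraries, among the 8399 genes that averaged 10 CPM or more. These libraries share their groups and numbers, so r is a description only. For Smad1 they were Denr, Eepd1 and Mdm1, with r of 0.915, 0.914 and 0.905. For Smad5 they were Oplah, Pspc1 and Abhd13, with r of 0.889, 0.883 and 0.882. For Smad4 they were Tmem64, Ddx28 and Ripk1 (0.871, 0.812 and 0.801), and for Smad2 Nup54, Exosc7 and C5ar2 (0.76, 0.73 and 0.72).

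In the authors' deposited table of comparisons, Smad1 had log2 differences of -0.34 (adjusted p = 0.0059) and -0.31 (adjusted p = 0.0383) for TGF-β1 in floxed-labelled and knockout-labelled libraries. The authors' deposited table gives Smad5 in floxed-labelled libraries 0.22 with an adjusted p of 0.0753, and Smad3 in knockout-labelled libraries -0.35 with an adjusted p of 0.0886. Both are past the threshold in the fit used here and not in the authors' deposited table. For the label difference of Smad1 the authors' deposited table gives -0.23, -0.20 and -0.23 untreated, under TGF-β1 and under BMP4, with adjusted p of 1, 0.651 and 0.743.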

How the data were processed

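Polyadenylated RNA of 18 mouse macrophage libraries was sequenced as 150-base read pairs, per the labels' protocols. The authors deposited whole-number read counts per gene and FPKM values per gene. The submitters' processing notes name TopHat2 2.0.9, Cufflinks 2.1.1, HTSeq 0.6.1 and the builds mm10 and GRCm38.p6, without a role for each, and whether counting used strand is not given in the sources used here. The deposited FPKM equalled counts per 1000000 of the library total divided by the deposited gene length in kilobases, within 1e-06 for 100% of 13597 genes. The table of comparisons with log2 fold changes and p-values is the authors' own, as deposited, and 78 further per-sample columns in it were not used.

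Counts were scaled by TMM and tested with edgeR 4.0.16 (glmQLFit and glmQLFTest, R 4.3.3), with filterByExpr, 1 mean for each of the 6 groups and Benjamini-Hochberg adjustment over 14684 genes. The threshold was an adjusted p of 0.05, and intervals are 95%. CPM are counts per 1000000 of the TMM-scaled total. The edgeR fit was tried on simulated data with known changes in a small share of genes, for the floxed-labelled TGF-β1 comparison only. The simulated libraries were independent, unlike the same-numbered libraries here, so the trial does not cover that feature of the data. DESeq2 1.42.0, other scalings and filters, a block on library number, each library left out and the 15 libraries without the 3 low in Lyz2 were the alternatives. The Smad2 length of GENCODE M21 was added after the data were seen. Shares were compared with exact permutation tests (scipy 1.17.1). No 2 libraries of a group held counts that agreed within sampling noise.

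Library numbers come from the labels. Within a genotype label, same-numbered libraries deviated together from their group means, with r of 0.186 to 0.502 over 12240 genes for every pair. The main fit did not take library numbers as pairs. As a block within each label the numbers entered an alternative fit, which changed the calls of Smad3 given with the results. Between the labels r was -0.195 to 0.0308, so they do not pair across labels.

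The 5 Smads and the pathway and marker lists were chosen with earlier results of these data known. The 5 Smads are named in each comparison. Of the pathway lists, up to 3 called genes per direction, list and comparison are named, by lowest p, if they had at least 1 CPM in the higher group. Pmepa1 under BMP4 was below that level and was named after its values were seen. Protein sequences were not used here, and the genes most like Smad3 are not reported here.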

Additional observations from a re-analysis of the deposited data

How the results depend on the processing

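Smad1 fell after TGF-β1, past the threshold, under every alternative run in both labels, with log2 differences of -0.41 to -0.27 in floxed-labelled and -0.39 to -0.25 in knockout-labelled libraries. In the mean over both labels, Smad1, Smad3 and Smad5 kept their calls under every alternative run. Calls that did not hold were those of Smad5 in floxed-labelled libraries without the count filter (adjusted p = 0.0553), Smad3 in knockout-labelled libraries with the compared groups fitted alone (adjusted p = 0.0977) and Smad4 between labels without the count filter (adjusted p = 0.138), beside those given with the results. The cause was not tested.

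The number of genes called moved more. For BMP4 in floxed-labelled libraries it was 0, and 69 without the count filter, 53 with the replicate block within genotype, 31 with DESeq2, 1 without the 3 libraries with little Lyz2, and 0 to 1 with 1 library left out. For BMP4 in knockout-labelled libraries it was 84, and 240, 472, 167 and 43 in that order, 2 with the compared groups alone, and 4 to 112 with 1 library left out. For the mean BMP4 response it was 128, and 337, 794, 380 and 46 in that order, 31 with the compared groups alone, and 30 to 208. The untreated label difference called 351 genes, and 817 without the filter, 552 with DESeq2, 39 without the 3 libraries, 29 with the groups alone, and 27 to 613. Under TGF-β1 it called 57, and 394, 199, 2 and 19 in that order, 30 with RLE scaling, 97 with the replicate block over all groups, and 0 to 16. Under BMP4 it called 4, and 287 without the filter, 41 with DESeq2, 0 with the groups alone, 2 with total count scaling, 10 with the block over all groups, and 1 to 5. The mean label difference called 1451, and 912 without the 3 libraries, 0 with treatments summed, and 1041 to 1685. The difference of TGF-β1 responses called 1 gene, 8 without the filter, 0 with total count scaling, the block over all groups, the groups alone or the 3 libraries left out, and 0 to 1 with 1 library left out. That of BMP4 responses called 0, and 48 without the filter, 11 with DESeq2 and 7 with the block within genotype. The replicate block within genotype changed no Smad call but those of Smad3 given with the results.

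Differences near 0 that were not called changed sign. Without the count filter Smad4 and Smad5 were 0.016 and 0.019 for BMP4 in knockout-labelled libraries, and Smad1 and Smad2 were 0.021 and 0.0083 in the difference of BMP4 responses. Without the 3 libraries Smad1 was 0.052 there and Smad5 0.0086 in the untreated label difference, which was 0.0043 with at least 1 CPM. With 1 library left out, the log2 ranges that crossed 0 were as follows. For TGF-β1 in knockout-labelled libraries they were -0.048 to 0.018 for Smad2 and -0.083 to 0.021 for Smad4. For BMP4 in floxed-labelled libraries they were -0.033 to 0.0078 for Smad2 and -0.012 to 0.093 for Smad5. For BMP4 in knockout-labelled libraries they were -0.057 to 0.018 for Smad2, -0.069 to 0.041 for Smad4 and -0.054 to 0.037 for Smad5. For the mean BMP4 response they were -0.032 to 0.0040 for Smad2, -0.0044 to 0.049 for Smad4 and -0.015 to 0.046 for Smad5. Between labels they were -0.054 to 0.038 for untreated Smad5, -0.013 to 0.042 and -0.12 to 0.16 for Smad2 and Smad3 under TGF-β1, and -0.043 to 0.049 for mean Smad3. In the difference of TGF-β1 responses they were -0.055 to 0.085 for Smad1, -0.22 to 0.056 for Smad3, -0.039 to 0.073 for Smad4 and -0.092 to 0.0024 for Smad5. In that of BMP4 responses they were -0.046 to 0.040 for Smad1, -0.049 to 0.029 for Smad2 and -0.094 to 0.012 for Smad5. The share of Smad1 and Smad5 shifted by -0.256 to 1.56 points for TGF-β1 in knockout-labelled and -0.189 to 0.59 points for BMP4 in floxed-labelled libraries. Floxed-labelled BMP4 means were 44.7 CPM for Smad2 and 68 CPM for Smad4 with total count scaling, and Smad2 had 4.94 FPKM with the longer length. At 266 to 1564 counts per Smad and library, 3 libraries a group limited these comparisons to changes of about the widths of the intervals given.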
